A study of Homo sapiens with 42 samples.

Results

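The genes described here encode the machinery that brings proteins into mitochondria. They were taken by name, 33 in the list, and the rows of the count table whose gene name equalled a member were used. A row was found for 32 of the 33 among 57353 gene names, and 31 passed the filter on low counts and were tested among 12939 genes. TOMM6 had a row with a count of 0 in all 42 libraries, and in the GENCODE annotation 100% of its exon bases were shared with another gene on the same strand. No row carried the name TOMM40. The row with the identifier of TOMM40, ENSG00000130204, was named AC011481.1 in the table, so its values are given under that identifier and it was left out of every count of members.

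The study grew MOLM-13 cells, an acute myeloid leukemia line that carries the FLT3-ITD mutation, for 12 h in 7 conditions with 3 cultures each. Cells in RPMI, a standard medium, received vehicle (DMSO), quizartinib (AC220, a FLT3 inhibitor, 3 nM) or combo (quizartinib with everolimus, an mTORC1 inhibitor, 10 nM). Cells in hBMSC-CM, RPMI mixed with medium conditioned by the HS-5 stromal line of human bone marrow, received vehicle, quizartinib, everolimus or combo. RNA was sequenced from whole lysate (input) and from heavy polysomes, the mRNAs that carry many ribosomes, so the 21 cultures gave 42 libraries in 14 groups. All groups are of 1 line, and the conditioned medium came from 1 stromal line.

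Most mitochondrial proteins are made in the cytosol and cross the outer membrane through the TOM complex. Carriers of the inner membrane are passed by the small TIM chaperones to the TIM22 translocase, whereas proteins with a presequence go through TIM23, are pulled into the matrix by an Hsp70 motor and are cut there by the processing peptidase. Beta-barrel proteins are inserted by the SAM complex, and small cysteine-rich proteins are trapped in the intermembrane space by the CHCHD4 and GFER oxidation relay.

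Promoter windows, 250 bases before to 50 bases after the start of each gene, were available from RefSeq (GRCh38.p14) for 30 of the 33 genes. They were searched on both strands for 3 motifs. The NRF1 core GCATGCGC, part of the site of a regulator of mitochondrial genes, was in 5 of 30 windows (16.7%), against 6.0% of the windows of tested genes and 3.3% of all 27305 windows. ETS motifs, searched as CCGGAAGT, were in 8 of 30 (26.7%), against 9.8% and 4.4%. The E-box CACGTG was in 3 of 30 (10.0%), against 10.5% and 7.4%. Stretches of 80 bases are shown for 4 members whose NRF1 core lies well upstream of the start. A stretch is also shown for the 1 member with an E-box wholly upstream. The first stretch holds the only NRF1 core among members that fell under quizartinib in RPMI. Capitals mark the motif, each stretch is read on the minus strand, 5′ to 3′, and the last 4 belong to members that did not pass the test there.
CHCHD4, chr3:14124977-14125056, minus strand: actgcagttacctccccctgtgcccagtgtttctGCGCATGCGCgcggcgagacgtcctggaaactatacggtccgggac
PAM16, chr16:4351323-4351402, minus strand: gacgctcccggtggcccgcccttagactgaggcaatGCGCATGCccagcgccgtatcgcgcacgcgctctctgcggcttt
TIMM9, chr14:58427616-58427695, minus strand: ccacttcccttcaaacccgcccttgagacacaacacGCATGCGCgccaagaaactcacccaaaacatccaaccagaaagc
TOMM7, chr7:22822929-22823008, minus strand: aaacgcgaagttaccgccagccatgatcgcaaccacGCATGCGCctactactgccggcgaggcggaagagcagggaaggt
TOMM20, chr1:235128962-235129041, minus strand: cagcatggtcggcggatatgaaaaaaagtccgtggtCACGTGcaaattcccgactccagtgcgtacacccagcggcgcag
In CHCHD4 the core matched on both strands in overlapping positions, 152 and 150 bases before the start. The windows of 1 of 15 members that fell in RPMI and 4 of 13 members that did not pass held the NRF1 core. For the ETS motif these were 3 of 15 and 4 of 13, and for the E-box 2 of 15 and 1 of 13. The 2 members that fell and held an E-box were TIMM10 and TIMM8A. Their motifs began 1 base before and 28 bases after the start. These are matches of letters and no binding was measured.

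Libraries held 19.4 to 37.2 M counts (M for 1e6) in input and 21.5 to 38.8 M in polysomes. Transcripts of the mitochondrial genome took 3.17 to 10.2% of the input counts and 0.0734 to 0.713% of the polysome counts, and the normalization factors were 1.06 to 1.25 and 0.705 to 1.04. The 10 markers of the leukemia line summed to 1883 to 4746 CPM (counts per 1e6 counts of the library, here without TMM scaling) with none at 0. By the same measure 12 stromal markers summed to 2.52 to 17.4 CPM, with COL3A1, LUM and POSTN at 0 in all 42 libraries. Levels of import genes below are in TMM-scaled CPM. Bulk RNA cannot tell fewer cells from less RNA per cell. Replicate 2 stood apart: the members' median polysome minus input (log2) was highest in that replicate in 6 of 7 conditions. The members' summed input was also lowest in replicate 2 in every condition but hBMSC-CM everolimus, and the part of each fraction was not tested. In input, replicate 1 held the largest mitochondrial share in every condition but hBMSC-CM everolimus, for example 9.27% against 4.70 and 4.70% in RPMI quizartinib and 7.59% against 3.17 and 3.68% in RPMI vehicle, and the part of this in the results was not tested.

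Per kilobase of exon, the import genes of untreated cells ranged widely. In input of RPMI vehicle, TIMM13, a small chaperone of the intermembrane space, stood at 128 ± 17.4 CPM per kb (SD, n = 3). TOMM22, a central receptor of the TOM complex, stood at 85.6 ± 11.8, and TIMM23, the channel of the presequence translocase, at 74.6 ± 6.96. TOMM7, which tunes TOM assembly, had 58.3 ± 4.62 with all exons, 138 with the longest transcript and 233 with the canonical transcript. PAM16, a motor subunit, had 1.95 ± 0.327 with all exons, 5.65 with the longest transcript and 8.55 with the canonical one. TOMM5, a small TOM subunit, had 1.33 ± 0.305, 1.56 and 6.77 in the same order, and by canonical transcript GRPEL2 was the lowest, at 4.62. The lowest TIMM13 culture, 112, lay above the highest TOMM22 culture, 98.9, whereas the cultures of TOMM22 and TIMM23 overlapped. Raw counts of TOMM5 were 0 to 205 per library, so its values carry the most counting error of the 31.

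Summed over the 31 members, input was 2053 to 2231 CPM in RPMI vehicle and 1170 to 1332 CPM in RPMI quizartinib. In hBMSC-CM the sums were 1679 to 2197 CPM with vehicle, 1245 to 1453 with quizartinib, 1537 to 1571 with everolimus and 1075 to 1294 with combo. RPMI vehicle held the highest mean for 19 of 31 members and hBMSC-CM vehicle for 9. Input of 12 members in every culture is plotted by condition.

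**Figure D1:**
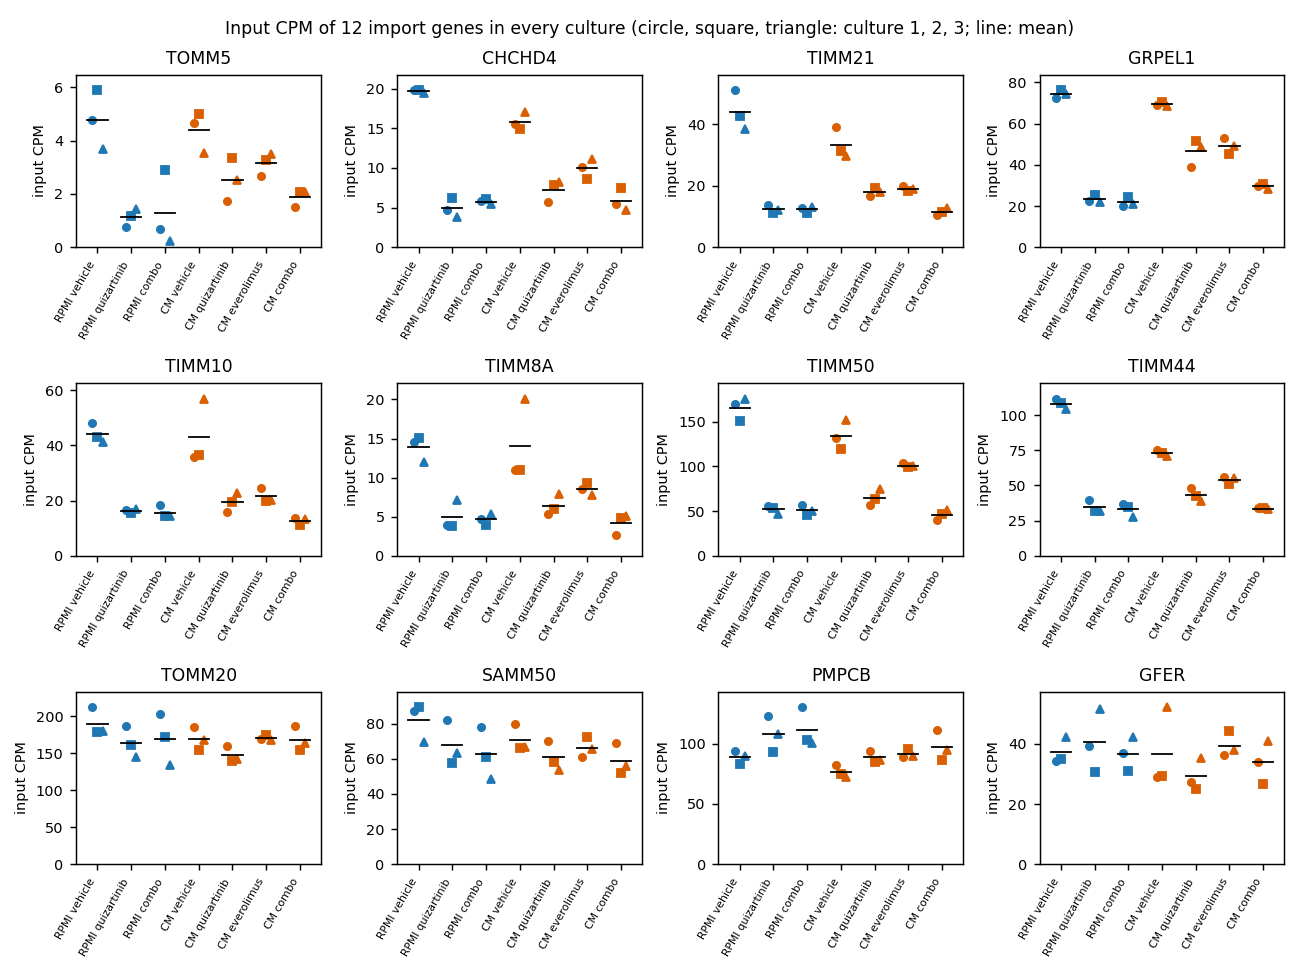
Input level (CPM, linear axis from 0) of 12 import genes in the 7 conditions, RPMI in blue and hBMSC-CM (written CM) in orange; circle, square and triangle are cultures 1, 2 and 3, and the line is their mean. CHCHD4 lies between 19.4 and 19.8 CPM in RPMI vehicle and between 3.84 and 6.25 CPM in RPMI quizartinib.

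Transcripts of most import complexes were lower under quizartinib in RPMI, and no member rose in the fit without a replicate block. Of the 31 members, 18 fell and 0 rose (edgeR quasi-likelihood test, adjusted p under 0.05), or 58.1%, while 34.6% of all genes were called in either direction. Their median log2 change was -0.93, against 0.08 over all genes. The cultures of both groups did not overlap for 23 of 31 members, against 55.7% of all genes. Members fell in 7 of the 8 role groups, and the SAM complex had 0 of 3 called. With the replicate number in the fit as a block 19 members were called, all lower, and with the block set within each fraction 21 were lower and 1 (TOMM7) higher. The shares of all genes called, here and below, are those of the fit without a block. The shares in the block fits are not given, so counts of members under a block stand without that background.

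Among subunits of the TOM complex and its helper TOMM34, 4 of 6 tested fell. TOMM5 was at 4.77, 5.89 and 3.69 CPM with vehicle and at 0.768, 1.19 and 1.42 CPM with quizartinib, a log2 change of -2.08 (SE 0.68, adjusted p = 0.0152). All vehicle cultures were higher, at low counts. TOMM34, a cytosolic co-chaperone of precursor proteins, fell by 1.37 on the log2 scale, TOMM70, the receptor for carriers, by 1.01, and TOMM22 by 0.87 (adjusted p = 0.0302). TOMM20, the receptor for presequences, had a log2 change of -0.21 (SE 0.21, adjusted p = 0.467) and TOMM7 one of 0.36 (adjusted p = 0.148, and 0.0405 with the block within each fraction). The receptors therefore differed in call, though TOMM20 was not tested against TOMM22 or TOMM70.

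The row with the TOMM40 identifier, the beta-barrel channel of the TOM complex (chr19:44890569-44903689 in GENCODE on GRCh38), had 445.5, 493.5 and 486.8 CPM in RPMI vehicle. With quizartinib it had 51.8, 57.5 and 60.6 CPM. It fell 8.39-fold (log2 change -3.07, SE 0.28, adjusted p = 1.89e-10), a larger log2 change than that of any of the 31 members in this comparison.

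Small TIM chaperones, which escort hydrophobic precursors across the intermembrane space, fell in 4 of 6 cases. TIMM10 was at 48.2, 43.2 and 41.2 CPM with vehicle and 16.5, 15.6 and 17.0 CPM with quizartinib (log2 change -1.43, SE 0.33, adjusted p = 0.000853). The groups did not overlap. TIMM8A fell by 1.48, TIMM13 by 1.43 and TIMM8B by 1.36 on the log2 scale. TIMM8B shared 30.1% and TIMM13 20.1% of their exon bases with genes on the other strand. TIMM9, which builds a ring with TIMM10, had a log2 change of -0.53 (adjusted p = 0.0939, and 0.0467 with the replicate block) and TIMM10B one of -0.52 (adjusted p = 0.195).

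TIM22, the carrier translocase, had 1 of 2 tested subunits called: its channel TIMM22 fell by 0.84 on the log2 scale (adjusted p = 0.00702), and TIMM29, a subunit of the same complex, had a log2 change of -0.09. In the TIM23 complex 4 of 5 fell. TIMM21, which links TIM23 to the outer membrane and the respiratory chain, went from 51.0, 42.7 and 38.3 CPM to 13.7, 11.2 and 12.2 CPM (log2 change -1.83, SE 0.37, adjusted p = 0.000164). TIMM50, the presequence receptor, went from 169.8, 150.9 and 175.5 CPM to 55.2, 53.2 and 47.1 CPM (log2 change -1.67, SE 0.20, adjusted p = 5.27e-08). Both genes lay lower in every quizartinib culture. TIMM23 fell by 1.31 (SE 0.24, adjusted p = 5.85e-05) and TIMM17A, its partner, by 1.11 (adjusted p = 0.0237) on the log2 scale, whereas TIMM17B, the paralog of TIMM17A, had a log2 change of -0.27 (adjusted p = 0.6). Reads of TIMM23 could be split with its near-identical copy TIMM23B.

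In the import motor, 3 of 5 fell. TIMM44, which tethers the Hsp70 motor to the channel, went from 111.6, 108.5 and 104.6 CPM to 39.4, 31.9 and 32.2 CPM (log2 change -1.65, SE 0.17, adjusted p = 1.51e-09). GRPEL1, the nucleotide exchange factor of the motor, went from 72.4, 76.1 and 74.4 CPM to 22.3, 25.4 and 21.9 CPM (log2 change -1.68, SE 0.27, adjusted p = 7.53e-06). Neither gene overlapped between groups. GRPEL2, the paralog of GRPEL1, fell by 1.63 on the log2 scale, and the J-domain subunits PAM16 (-0.27, adjusted p = 0.7) and DNAJC19 (-0.24, adjusted p = 0.536) did not pass.

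CHCHD4, the oxidoreductase that traps cysteine-rich proteins, was at 19.8, 19.8 and 19.4 CPM with vehicle and at 4.75, 6.25 and 3.84 CPM with quizartinib, 3.97-fold lower (log2 change -1.99, SE 0.28, adjusted p = 7.56e-07). GFER, the oxidase that recharges CHCHD4, had a log2 change of 0.13 (adjusted p = 0.694). The log2 ratio of CHCHD4 to GFER in input was -0.80, -0.82 and -1.12 with vehicle and -3.03, -2.29 and -3.72 with quizartinib, with no overlap. PMPCA, the alpha subunit of the processing peptidase, fell by 0.93 on the log2 scale (adjusted p = 0.00126) and its catalytic partner PMPCB had a log2 change of 0.27 (adjusted p = 0.444). SAMM50, the barrel of the SAM complex, had -0.28 (adjusted p = 0.325), and its metaxin partners MTX1 and MTX2 had -0.35 and -0.50 without passing, though both passed with the block within each fraction (adjusted p = 0.0388 and 0.0152). GFER shared 41.5% of its exon bases with genes on the other strand, and whether counting used strand was not stated.

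**Figure D2:**
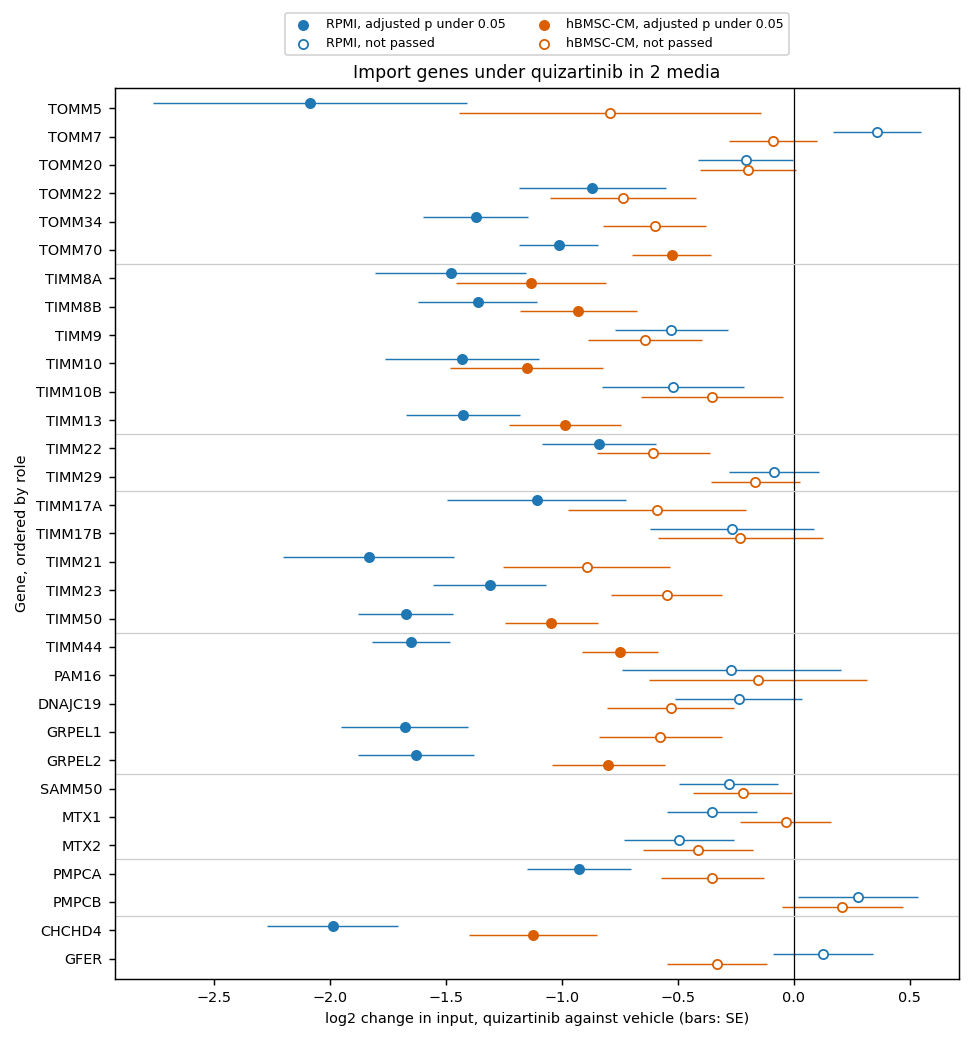
Log2 change of input level (horizontal axis, bars are SE) of each tested import gene, by role, for quizartinib against vehicle in RPMI and in hBMSC-CM; filled points passed the adjusted p of 0.05. In RPMI 18 of 31 points are filled and in hBMSC-CM 9 of 31, all of them below 0.

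In hBMSC-CM the same contrast called 9 of 31 members, all lower, while 12.3% of all genes were called. The median log2 change was -0.58, against 0.01 over all genes, and 20 of 31 members did not overlap between groups, against 34.1% of all genes. Called were TIMM10, TIMM8A, TIMM13 and TIMM8B of the small chaperones, TIMM50, TIMM44, GRPEL2, CHCHD4 and TOMM70. The replicate block gave 15 called members and the block within each fraction gave 17, with none higher in either. The 12.3% of all genes does not belong to these 2 fits. Leaving out hBMSC-CM vehicle replicate 3 left 3 members called, hBMSC-CM quizartinib replicate 1 left 4 and hBMSC-CM quizartinib replicate 2 left 5.

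TIMM10 was at 35.8, 36.4 and 56.8 CPM with vehicle and 15.7, 19.6 and 22.9 CPM with quizartinib (log2 change -1.15, SE 0.33, adjusted p = 0.0184). TIMM8A was at 11.0, 11.0 and 20.1 CPM with vehicle and 5.36, 5.98 and 7.88 CPM with quizartinib (log2 change -1.13, SE 0.32, adjusted p = 0.018). Vehicle replicate 3 was the highest of the vehicle cultures for both, and also for TIMM8B, TIMM9, TIMM10B and TIMM13, where TIMM13 stood at 270.9 CPM against 141.0 and 125.3.

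CHCHD4 went from 15.5, 14.9 and 17.0 CPM to 5.75, 7.80 and 8.19 CPM (log2 change -1.13, SE 0.27, adjusted p = 0.00577). TIMM50 went from 131.8, 119.0 and 151.6 CPM to 57.1, 63.2 and 74.6 CPM (log2 change -1.05, SE 0.20, adjusted p = 0.000679). Neither overlapped between groups. TIMM44 fell by 0.75 on the log2 scale (adjusted p = 0.0025). The TOMM40 identifier had 349.5, 376.7 and 485.2 CPM with vehicle and 127.9, 161.8 and 234.6 CPM with quizartinib (log2 change -1.21, SE 0.27, adjusted p = 0.00243).

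Members that did not pass in hBMSC-CM included TIMM23 (log2 change -0.55, adjusted p = 0.13), TIMM17A (-0.59, adjusted p = 0.338), TOMM22 (-0.74, adjusted p = 0.121), GRPEL1 (-0.58, adjusted p = 0.155) and TIMM21 (-0.89, adjusted p = 0.0979). TOMM20 (-0.20), SAMM50 (-0.22), PAM16 (-0.16), GFER (-0.33) and PMPCB (0.21) did not pass either. Of these, TIMM23 passed with the replicate block (adjusted p = 0.0205), as did GRPEL1 (adjusted p = 0.0376), TIMM21 (adjusted p = 0.0262) and TOMM22 (adjusted p = 0.0461).

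Whether the medium changed the response was tested as the quizartinib effect in hBMSC-CM minus that in RPMI. It was positive, meaning a smaller loss in hBMSC-CM, in 25 of 31 members, with a median of 0.32 against -0.04 over all genes. TIMM44 passed (difference 0.90, SE 0.23, adjusted p = 0.0297), 1 of 31 members, while 1.96% of all genes passed. TIMM44 passed in 12 of 22 alternatives, and 0 members passed without hBMSC-CM quizartinib replicate 1 or 2, any hBMSC-CM vehicle replicate, RPMI quizartinib replicate 2, or RPMI vehicle replicate 1 or 2. The block raised the count to 2 and the block within each fraction to 6, adding GRPEL1 in the first and GRPEL1, TIMM21, TIMM23, TIMM50 and TOMM34 in the second. The TOMM40 identifier had the largest difference, 1.86 (SE 0.37, adjusted p = 0.00329), and passed in 22 of 22 alternatives.

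Between media with quizartinib in both, GRPEL1 was higher in hBMSC-CM, at 39.02, 51.73 and 48.85 CPM against 22.3, 25.4 and 21.9 CPM (log2 change 1.00, SE 0.27, adjusted p = 0.0126). It was the 1 member called, against 8.16% of all genes, and 10 of 31 members did not overlap between the groups, as for 29.8% of all genes. Its call was lost without hBMSC-CM quizartinib replicate 2 and without RPMI quizartinib replicate 3, where 0 members were called. TIMM23 had a log2 change of 0.68 (adjusted p = 0.0831, and 0.00857 with the replicate block, where 2 members passed). With the block within each fraction 8 passed, of which GFER alone was lower, the others being GRPEL1, TIMM23, PMPCA, TIMM17A, TIMM21, TIMM44 and TOMM34. The TOMM40 identifier was 1.63 higher on the log2 scale (SE 0.27, adjusted p = 4.89e-05).

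With no drug, 0 of 31 members differed between the media by the edgeR test, 2 had an unadjusted p under 0.05, limma voom called 0 and DESeq2 called 1, while 1.51% of all genes were called. TIMM44 had 75.2, 72.8 and 71.2 CPM in hBMSC-CM vehicle and 111.6, 108.5 and 104.6 CPM in RPMI vehicle, with no overlap (log2 change -0.57, SE 0.16, adjusted p = 0.0792). It passed with the replicate block (adjusted p = 0.00853) and with the block within each fraction (adjusted p = 0.00128), as the 1 member called. The contrasts of quizartinib, of the media and of their difference share these vehicle cultures. The lower TIMM44 level of hBMSC-CM vehicle therefore enters its difference of quizartinib effects.

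Adding everolimus to quizartinib in RPMI called 0 of 31 members, with 0 at an unadjusted p under 0.05 and 0 by limma voom and by DESeq2, while 0.00773% of all genes were called. The median log2 change was -0.06 and the members ranged from -0.65 (PAM16) to 0.25 (TIMM9). In hBMSC-CM the combination against quizartinib also called 0 of 31 by edgeR, limma voom and DESeq2, with 8 at an unadjusted p under 0.05, while 0.24% of all genes were called. The median was -0.21, and 11 of 31 members did not overlap between groups, against 14.7% of all genes. GRPEL1 had 29.8, 30.7 and 28.4 CPM with combo against 39.02, 51.73 and 48.85 CPM with quizartinib (log2 change -0.65, adjusted p = 0.603). With the block within each fraction GRPEL1, TIMM23, TIMM50 and PMPCA passed, all 4 lower with combo (adjusted p = 0.0126, 0.0255, 0.0348 and 0.0277). The TOMM40 identifier had a log2 change of -1.10 (SE 0.27, adjusted p = 0.0724), and it passed with the replicate block (adjusted p = 0.00882) and with the block within each fraction (adjusted p = 0.000136).

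Everolimus alone in hBMSC-CM against vehicle called 0 of 31 by edgeR, with 9 at an unadjusted p under 0.05 and 1 called by limma voom and 1 by DESeq2, while 0.41% of all genes were called. The log2 change was negative in 27 of 31 members, with a median of -0.41 against -0.02 over all genes. Of the 31, 21 did not overlap, against 27.7% of all genes. TIMM10 had 24.7, 20.0 and 20.2 CPM (log2 change -0.99, SE 0.33, adjusted p = 0.217). GRPEL2 had 9.15, 7.64 and 6.73 CPM against 15.4, 12.4 and 17.4 CPM in vehicle (log2 change -0.94, SE 0.25, adjusted p = 0.0733). The everolimus cultures of both genes lay below all vehicle cultures. Same-numbered input libraries of everolimus and vehicle did not deviate together (r from -0.0147 to -0.000365). Those of quizartinib and vehicle in hBMSC-CM did (r from 0.41 to 0.62). Mitochondrial transcripts took 3.67, 4.08 and 4.25% of input counts with everolimus and 7.05, 3.19 and 3.17% with vehicle. A difference between these sets of cultures was not tested apart from the drug.

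The import genes differed widely in polysome level relative to input, in every condition. Polysome against input, the log2 CPM of the polysome library minus that of the input library, compares the share of a transcript in each RNA pool. It does not measure how much of the RNA of a gene was on polysomes. The paper reported that quizartinib and combo lowered RNA yield, more in heavy polysomes than in input. In RPMI vehicle 14 of 31 members were higher on polysomes and 7 lower, while 65.4% of all genes were called. In RPMI quizartinib 11 were higher and 10 lower (57.9% of all genes called), and in RPMI combo also 11 and 10 (59.3%). In hBMSC-CM the counts were 12 higher and 8 lower with vehicle (63.6% of all genes called), 13 and 8 with quizartinib (58.7%), 15 and 8 with everolimus (58.6%) and 13 and 9 with combo (63%). The share of members called, 64.5 to 74.2%, was near that of all genes with vehicle, at 67.7% in RPMI and 64.5% in hBMSC-CM. It lay above that of all genes in the other conditions, farthest in hBMSC-CM everolimus (74.2% against 58.6%). These differences were not tested.

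Scaling decides where 0 lies. With library size only, the median of all genes in RPMI vehicle moved from -0.06 to -0.61, and the split became 9 higher and 11 lower. The splits were then 10 and 13 in RPMI quizartinib, 11 and 11 in RPMI combo, 8 and 14 in hBMSC-CM vehicle, 9 and 13 in hBMSC-CM quizartinib, 10 and 8 in hBMSC-CM everolimus and 10 and 13 in hBMSC-CM combo. Scaling moves all genes of a library together, and values below are as fitted, beside a median of all genes that lay between -0.11 and 0.06 over the 7 conditions.

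In every condition 11 members were higher on polysomes and 7 were lower, 7 were called in some conditions and 6 in none, and no member was called in opposite directions. Per condition 57.9 to 65.4% of all genes were called, and the share called alike in all 7 conditions was not computed. With library size only, fewer than 11 members were higher in some conditions, so these lists hold for the main scaling. The 11 were MTX1, TIMM50, GFER, TIMM29, PMPCA, SAMM50, TIMM22, TOMM34, TIMM44, GRPEL1 and TIMM23. The 7 were TIMM9, TOMM5, TIMM21, PAM16, PMPCB, GRPEL2 and DNAJC19.

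In RPMI vehicle MTX1 was highest on polysomes, with 1.89, 2.22 and 1.21 in the 3 cultures (log2 1.81, SE 0.20, adjusted p = 7.29e-09). TIMM50 had 1.98, 1.95 and 1.02 (log2 1.70, SE 0.20, adjusted p = 3.00e-08), and GFER 1.83, 1.42 and 1.38 (log2 1.55, SE 0.22, adjusted p = 4.37e-07). Every culture was above 0 for all 3 genes. TIMM9 was lowest, with -2.85, -2.22 and -2.24 (log2 -2.45, SE 0.26, adjusted p = 4.57e-09). TOMM5 had -1.26, -1.90 and -1.63 (log2 -1.63, SE 0.67, adjusted p = 0.0328), and TIMM21 -2.47, -0.82 and -1.99 (log2 -1.62, SE 0.37, adjusted p = 0.000287). TIMM9 shared 26.6% of its exon bases with genes on the other strand and TOMM5 18.9% with genes on its own strand, and MTX1 shared 21.9% with the other strand. PAM16 shared 22.4% with CORO7-PAM16 on its own strand. The annotation held 9 pseudogenes of DNAJC19 and 6 of TOMM22, the most of any member, and reads shared with them were not tested.

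**Figure D3:**
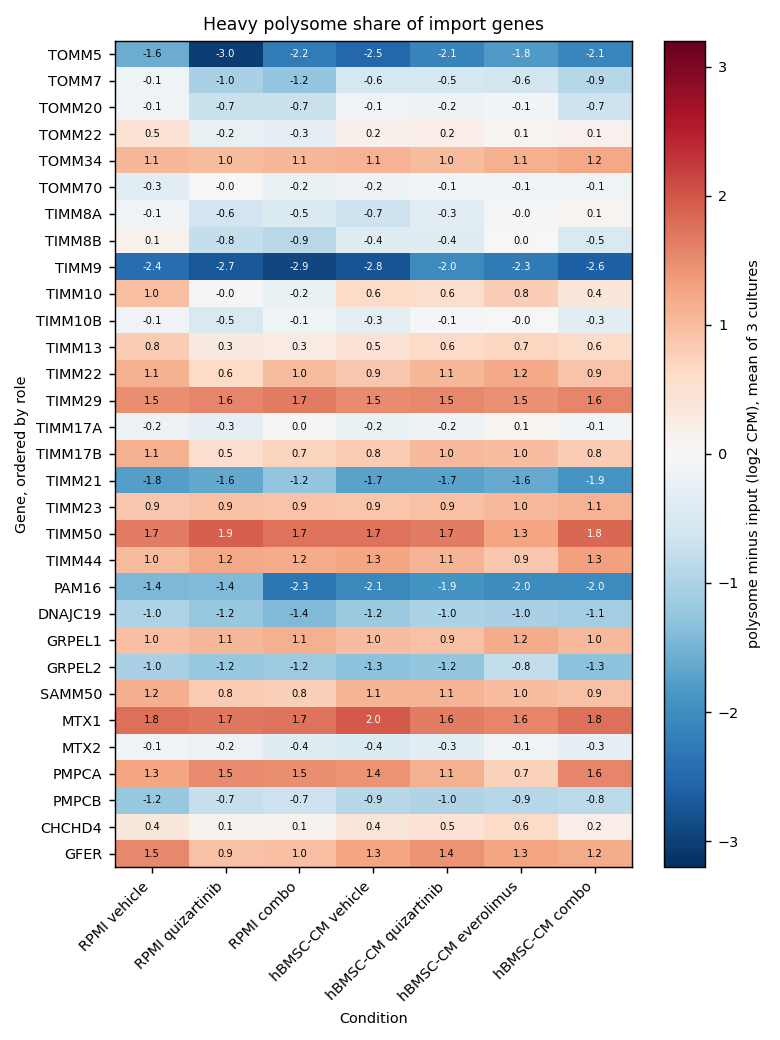
Polysome minus input (log2 CPM, colour, mean of 3 cultures) of each tested import gene (rows, by role) in the 7 conditions (columns). TIMM9 and TOMM5 are below 0 and MTX1 and TIMM50 above 0 in every column.

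The TOM subunits found by name were mostly near or below 0. The row with the TOMM40 identifier, the channel, was called higher on polysomes in every condition. It ranged from 1.87-fold in hBMSC-CM everolimus to 2.31-fold in RPMI vehicle. TOMM20 lay between -0.74 and -0.09 over the conditions and was called lower in 3 of 7, and TOMM7 lay between -1.24 and -0.12 and was called lower in 6. TOMM22 (-0.28 to 0.52) and TOMM70 (-0.32 to 0.00) were called in none. TIMM23 (0.89 to 1.15) and TIMM50 (1.26 to 1.94) were higher in all 7, whereas TIMM17A (-0.20 to 0.08) was called in none. TIMM10 (-0.19 to 0.99) was called higher in 2 conditions and CHCHD4 (0.13 to 0.63) in 1. In the motor, TIMM44 (0.86 to 1.32) and GRPEL1 (1.00 to 1.19) were higher in all 7 and PAM16 (-2.08 to -1.41) was lower in all 7.

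Members that work together, and paralogs, could sit far apart on polysomes. The following ratios, 7 pairs in all, were chosen after the values were seen and are descriptions. The share of other gene pairs with such counts of cultures was not computed. The polysome minus input of PMPCA exceeded that of PMPCB, the other subunit of the same enzyme, in 21 of 21 cultures, by 3.39, 2.52 and 1.52 in RPMI vehicle. TIMM10 exceeded TIMM9 in 21 of 21, by 3.55, 3.59 and 3.08 in RPMI vehicle. GRPEL1 exceeded GRPEL2, and MTX1 exceeded MTX2, in 21 of 21 each. TIMM17A lay below TIMM17B in 21 of 21, TIMM13 exceeded TIMM8A in 20 of 21 and CHCHD4 exceeded GFER in 1 of 21.

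In input, quizartinib in RPMI moved some of these ratios. The log2 CPM ratio of TIMM10 to TIMM9 was 0.37, 0.59 and 0.51 with vehicle and -0.41, -0.28 and -0.55 with quizartinib. That of PMPCA to PMPCB was 0.39, 0.74 and 0.70 with vehicle and -0.87, -0.31 and -0.56 with quizartinib. That of TIMM17A to TIMM17B was 0.34, 0.25 and 0.01 with vehicle and -0.67, -0.34 and -0.91 with quizartinib. None of these 3 overlapped between groups, while 55.7% of single genes did not overlap in this contrast and the share of gene pairs was not computed. Each of the 3 joins a member called lower with one not called in the fit without a block, so the ratios restate those calls. The ratio of GRPEL1 to GRPEL2 was 1.68, 2.20 and 2.16 with vehicle and 1.77, 2.12 and 1.92 with quizartinib, and it overlapped. Those of TIMM13 to TIMM8A and of MTX1 to MTX2 overlapped too.

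Whether a treatment or medium changed polysome minus input was tested as an interaction with fraction. Quizartinib in RPMI called 0 of 31 members by edgeR, with 4 at an unadjusted p under 0.05, 0 by limma voom and 1 by DESeq2, while 1.55% of all genes were called. The median was -0.21, against 0.15 over all genes, and with DESeq2's size factors in edgeR it was -0.36 against 0.01. The replicate block called 1 member and the block within each fraction 4, all lower.

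TOMM7 had polysome minus input of 0.02, -0.18 and -0.22 in RPMI vehicle and -1.07, -1.09 and -0.93 in RPMI quizartinib (difference -0.90, SE 0.27, adjusted p = 0.0839, and 0.0121 with the replicate block). With the block within each fraction TIMM10 (adjusted p = 0.0457), TIMM8B (adjusted p = 0.0289), TOMM20 (adjusted p = 0.0321) and TOMM7 (adjusted p = 0.00378) passed. In the fit without a block, TIMM10 had a difference of -0.99 (adjusted p = 0.287), TIMM8B one of -0.89 (adjusted p = 0.206), TOMM20 one of -0.57 (adjusted p = 0.343) and TOMM22 one of -0.72 (adjusted p = 0.462). TIMM50 (0.24), TIMM44 (0.21), PMPCB (0.54) and TIMM23 (0.07) had positive values without passing.

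The other 7 polysome minus input comparisons called 0 of 31 members each by edgeR, limma voom and DESeq2, while 0% of all genes were called by edgeR. They were quizartinib in hBMSC-CM, the media with no drug, the media with quizartinib, combo against quizartinib in either medium, everolimus in hBMSC-CM, and the difference of the quizartinib effects. Everolimus and the difference of effects had 1 member each at an unadjusted p under 0.05, PMPCA (-0.74) and TOMM7 (0.96), and the other 5 had 0.

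Coding length was related in part to the members' level on polysomes, with exceptions such as TIMM10 and TIMM13, short and called higher in RPMI vehicle, and PMPCB, TIMM21 and GRPEL2, longer and called lower there. The 8 tested members with at most 110 codons were TOMM5 (51 codons), TOMM7 (55), TIMM8B (83), TIMM9 (89), TIMM10 (90), TIMM13 (95), TIMM8A (97) and TIMM10B (103), a split made after the values were seen. Over the 31 members, Pearson's r between log2 coding length and polysome minus input was 0.38 in RPMI vehicle, 0.63 in RPMI quizartinib and 0.42 to 0.61 in the other 5 conditions. Over all 10799 genes with a coding length it was between -0.25 and 0.01. These correlations are across genes, which share the libraries, and are given as descriptions.

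**Figure D4:**
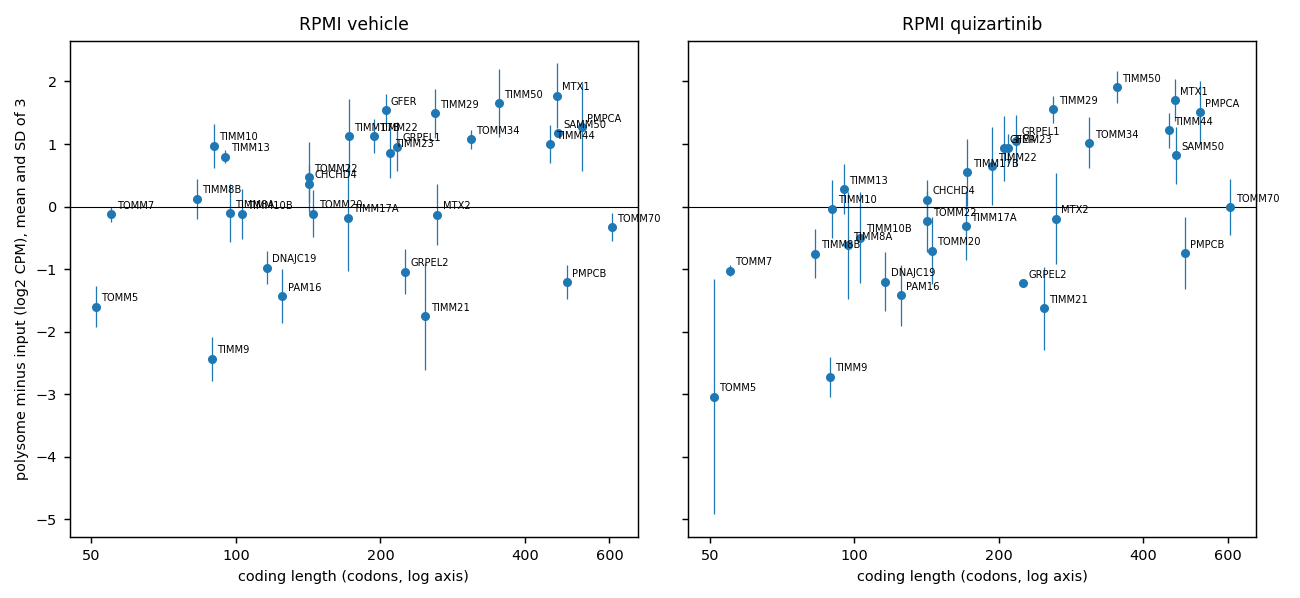
Polysome minus input (log2 CPM, mean and SD of 3 cultures) against coding length (codons, log axis) of the 31 tested import genes, in RPMI vehicle and RPMI quizartinib. Pearson's r across genes is 0.38 in the first panel and 0.63 in the second.

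Quizartinib in RPMI gave the 8 short members a negative change of polysome minus input in 8 of 8, with a median of -0.71, against -0.08 for the 23 longer members. All 318 tested genes of at most 110 codons had a median of -0.51, and 85.5% of them were negative. The 10481 longer genes had a median of 0.21 and 34.0% were negative, while 13 of the 23 longer members were. Under quizartinib the sign between media was the reverse: the short members were higher in hBMSC-CM than in RPMI in 8 of 8, with a median of 0.52, as were all but 12.6% of the short genes. With no drug they were lower in hBMSC-CM in 8 of 8, with a median of -0.44, as were 91.2% of the short genes. Under quizartinib in hBMSC-CM the change was positive in 8 of 8, with a median of 0.31, as in all but 17.0% of the short genes. Under everolimus it was positive in 8 of 8, with a median of 0.37, as in all but 22.3% of the short genes. None of these changes of members passed the edgeR test without a block. The 8 genes were read in the same libraries, so 8 of 8 is a description. The comparisons of media with no drug, of quizartinib in hBMSC-CM and of everolimus share the hBMSC-CM vehicle cultures. Same-numbered libraries of everolimus and vehicle did not deviate together. A difference between these sets of cultures was not tested apart from the drug.

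By culture, the median polysome minus input of the short members was -0.32, -0.11 and 0.31 in RPMI vehicle and -0.88, -0.37 and -0.96 in RPMI quizartinib. In hBMSC-CM it was -0.44, -0.19 and -0.86 with vehicle and -0.51, 0.04 and -0.54 with quizartinib. Both RPMI groups were separate, whereas the hBMSC-CM groups overlapped, and replicate 2 was the highest in 3 of these 4 groups. The media overlapped with vehicle and with quizartinib. Everolimus in hBMSC-CM had -0.03, -0.23 and 0.05, which overlapped hBMSC-CM vehicle.

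**Figure D5:**
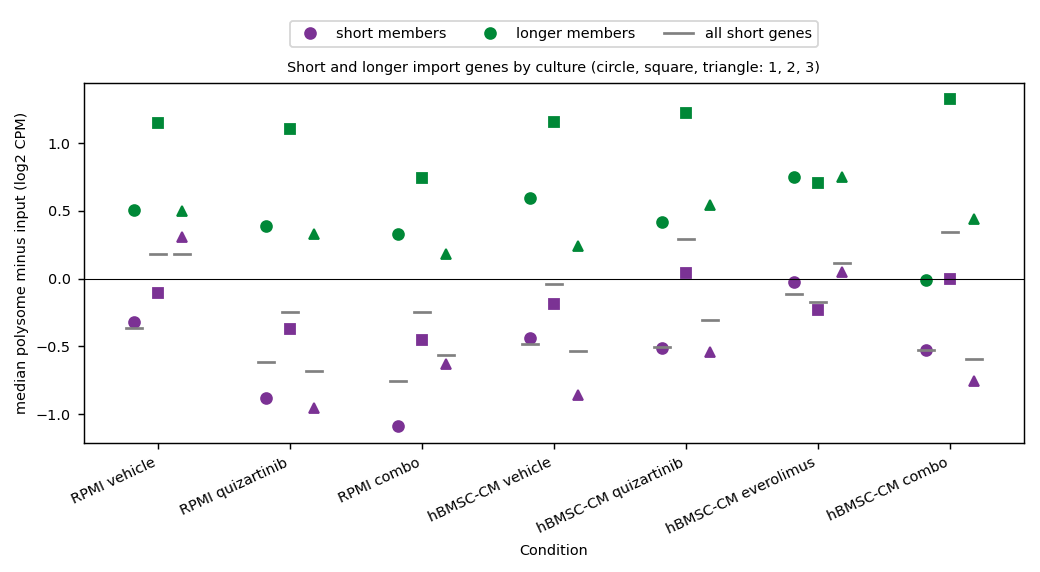
Median polysome minus input (log2 CPM) of the 8 short members, the 23 longer members and all 318 short genes in each culture (circle, square and triangle are cultures 1, 2 and 3) of the 7 conditions. Short members lie below longer members in every culture, and in RPMI vehicle they range from -0.32 to 0.31.

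Other genes of import and maturation, 23 in a list with 20 tested, gave 9 lower and 0 higher under quizartinib in RPMI, where 34.6% of all genes were called in either direction. HSPE1 and HSPD1, the co-chaperone and chaperone of the matrix folding chamber, had log2 changes of -2.74 and -1.72, and HSPA9, the Hsp70 of the import motor, one of -1.82. MIPEP (-1.71), DNAJC11 (-1.48), MTCH2 (-1.15), IMMP2L (-0.94), AIFM1 (-0.61) and IMMT (-0.57) fell too. In hBMSC-CM, where 12.3% of all genes were called, 7 of 20 fell: HSPE1 (-1.66), MIPEP (-1.09), HSPD1 (-1.03), IMMP2L (-0.91), HSPA9 (-0.90), MTCH2 (-0.74) and DNAJC11 (-0.69). The difference of quizartinib effects between media passed for DNAJC11 (0.79), while 1.96% of all genes passed, and none of the 20 passed in the other comparisons between conditions.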

How the data were processed

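The study lysed MOLM-13 cells after cycloheximide, separated heavy polysomes on sucrose gradients and sequenced poly(A) RNA from both fractions. The authors trimmed reads with BBDuk, aligned them with STAR 2.6.0a to hg38 with an Ensembl annotation and deposited raw read counts per gene, 58884 rows. Strand use in counting is not given in the sources used here. Rows of the same name were summed, and a gene was kept where its mean over all libraries reached 1 count and 1 CPM, which left 12939 genes and 99.8% of the counts. Totals were 19.4 to 38.8 M (1e6 counts) per library, and intervals for single counts were not used.

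Counts of all 42 libraries were fitted with edgeR 4.0.16 (R 4.3.3) by its robust quasi-likelihood test with TMM factors and 14 group means, and p-values were adjusted by Benjamini-Hochberg over all 12939 genes. A member was called at an adjusted p under 0.05. Values per culture are TMM-scaled CPM, or log2 CPM with a prior count of 2. The script was tested on simulated data. Alternatives were limma 3.58.1 (voom), DESeq2 1.42.0, other scalings, filters, a replicate block and leaving out each replicate. Positions, exon overlaps and coding lengths came from GENCODE on GRCh38, matched by identifier, and promoters from RefSeq. Same-numbered libraries deviated together (every pair's r between 0.16 and 0.72) in all comparisons except everolimus against vehicle, so the numbers pair the samples, as read from the data. The labels do not say whether same-numbered cultures were grown together or how independent cultures were, so p-values measure the spread between these samples. The values of a few members were given per library by rule: up to 4 members per direction that were called and did not overlap, the 3 highest and 3 lowest on polysomes in RPMI vehicle, and 13 fixed members. The members and lists were chosen with earlier results of these data known.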

Additional observations from a re-analysis of the deposited data

Results flagged for a closer look

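The effect of quizartinib on input levels differed between media, by the edgeR test of the difference itself, for 2 rows among the import genes. The row with the TOMM40 identifier had log2 changes of -3.07 in RPMI and -1.21 in hBMSC-CM, a difference of 1.86 (SE 0.37, adjusted p = 0.00329), and it passed in 22 of 22 alternatives. Its 3 quizartinib cultures had 51.8 to 60.6 CPM in RPMI and 127.9 to 234.6 CPM in hBMSC-CM.

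TIMM44 had log2 changes of -1.65 in RPMI and -0.75 in hBMSC-CM, a difference of 0.90 (SE 0.23, adjusted p = 0.0297), with adjusted p between 0.000284 and 0.483 over 22 alternatives, 12 of which called it. The vehicle cultures of TIMM44 were 104.6 to 111.6 CPM in RPMI and 71.2 to 75.2 CPM in hBMSC-CM, and the quizartinib cultures 31.9 to 39.4 and 39.3 to 48.3 CPM.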

How the results depend on the processing

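Over all alternatives, 335 counts of called members stayed within 1.5 times the main count and 39 did not, and no named value reversed. A count of 0 in both fits was taken as unchanged, so part of the 335 holds no called member. Under quizartinib in hBMSC-CM the 9 called members became 15 with the replicate block, 17 with the block within each fraction, 3 to 8 when 1 replicate was left out and 5 without replicate 2 of every condition, an alternative chosen after seeing the data. Between media with no drug the 0 became 1 with DESeq2, 1 with library size only, and 1 with either block. Between media under quizartinib the 1 became 2 with the block, 8 with the block within each fraction, 2 in a fit of only the groups compared, 0 to 2 when 1 replicate was left out and 0 without replicate 2 of every condition. Combo against quizartinib in hBMSC-CM went from 0 to 4 with the block within each fraction. Everolimus went from 0 to 1 with limma voom, 1 with DESeq2, 1 with the replicate block and 6 with the block within each fraction, where the numbers did not pair the samples. The difference of quizartinib effects in input went from 1 to 0 with no filter, 2 with the block, 6 with the block within each fraction, 3 in a fit of only the groups compared, 0 to 1 when 1 replicate was left out and 0 without replicate 2 of every condition. Polysome minus input under quizartinib in RPMI went from 0 to 1 with DESeq2, 1 with edgeR's version of DESeq2's size factors, 1 with the replicate block and 4 with the block within each fraction. The blocks moved no other count of called members by over 1.5 times. The share of all genes called in each alternative is not given here, and the cause of these changes was not tested.

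Leaving out 1 replicate gave 16 to 18 called members for quizartinib in RPMI. For polysome against input it gave 16 to 20 in RPMI vehicle, 17 to 21 in RPMI quizartinib, 16 to 18 in RPMI combo, 19 to 21 in hBMSC-CM vehicle, 16 to 21 in hBMSC-CM quizartinib, 17 to 19 in hBMSC-CM everolimus and 16 to 23 in hBMSC-CM combo. Of the 18 members called for quizartinib in RPMI, 14 were called in every alternative, and of the 9 in hBMSC-CM 2 were. A stricter filter, a mean of at least 10 CPM, left TOMM5, PAM16, TIMM8A and GRPEL2 untested. Per-kilobase levels moved by more than the SD between cultures in 19 of 31 members with the length of the longest transcript in place of all exons.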
